A study of Mus musculus with 6 samples.

Results

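The 10 genes described here encode the factors that fire licensed replication origins: Gins1, Gins2, Gins3, Gins4, Cdc45, Ticrr, Mtbp, Topbp1, Dbf4 and Cdc7. They were taken as a named list, and all 10 were found by symbol in the RefSeq annotation of the mouse genome, among 18375 autosomal protein-coding genes that received a timing score. The data come from whole-genome sequencing of growing mouse myeloid lines (HoxB8-immortalised, GM-CSF-selected), with 3 Recql4 -/- Klhdc3 -/- samples and 3 WT samples. The double mutant lacks the RecQ helicase gene Recql4 and the ubiquitin ligase receptor gene Klhdc3. The HoxB8 immortalisation, the GM-CSF selection and the medium were shared by both genotypes. Division took 15 to 18 hours, and over 25% of cells were in S phase, per the labels. The sources used here do not say whether samples of a genotype were separate clones or cultures. The study asked whether replication timing of the double mutant differs from that of the wild type.

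In a growing culture, DNA that replicates early is present in more copies than DNA that replicates late, so sequencing depth along the genome follows the order of replication. The deposited tables hold a raw DNA copy level and a smoothed timing score in 237602 windows with a median length of 10041 bp. In each column the score is scaled over the autosomes to mean 0 and SD 1, and a higher score means earlier replication. The 6 columns of values carry no sample names. They are therefore called profiles A to F in column order, no profile is assigned to a genotype, and no genotypes are compared. A gene's score is that of the window nearest its midpoint. The 10 genes lay outside 20 Mb bins with a copy shift of single profiles as large as that on chromosome 3. The raw level of the bin around each departed by at most 0.0251 from the median of the profiles, against up to 0.262 there. A score unit corresponded to 0.125 to 0.161 of raw level over the profiles. Smaller or narrower shifts at the genes were not tested. The depth behind each value is unknown, so no counting interval is given. The data are DNA only, so the myeloid label could not be set against expressed markers.

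Origin firing is the step that turns an inactive, loaded MCM helicase into a moving one. The DBF4-CDC7 kinase phosphorylates MCM proteins, and cyclin-dependent kinase activity brings Treslin (the product of Ticrr), its partner MTBP and the scaffold TOPBP1 to the loaded helicase. CDC45 and the GINS complex then join MCM to form the CMG helicase that unwinds DNA at the fork. In budding yeast and in frog embryos several of these factors are scarce, and their supply limits how many origins fire at a time.

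Most origin firing genes replicated earlier than the autosomal average, but none of them was among the earliest genes. Their median score was 0.69, 0.70, 0.66, 0.59, 0.61 and 0.52 in profiles A to F. The median over all 18375 scored genes was 0.87, 0.85, 0.82, 0.78, 0.81 and 0.70 in the same profiles. The median of the firing genes was thus the lower one in each profile. Of the 10 genes, 9 scored above 0 in each of the 6 profiles, against 76.2% of all scored genes, and 1 scored below 0 in each, against 15.5%. In no profile did a firing gene exceed the 75th percentile of all genes, which lay between 1.06 and 1.24, and in each profile 1 gene, Dbf4, lay below the 25th. The score was below the all-gene median in each profile for 6 firing genes, against 42.2% of all genes. These shares describe the list, and the list was not tested.

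Ordered by their median over the profiles, the genes ran from Ticrr at 0.86 through Gins2, Cdc7, Cdc45, Gins3, Gins1, Gins4, Topbp1 and Mtbp to Dbf4 at -0.22. Of the 9 pairs of neighbours in this order, 2 kept it within each of the 6 profiles. They were Gins2 over Cdc7, with a median difference of 0.08 and overlapping ranges, and Mtbp over Dbf4, with a median difference of 0.56 and no overlap. The other pairs held their order in 3 to 5 profiles and had overlapping ranges, so their order was not settled. Dbf4 ranked 10 of 10 in each profile, whereas Cdc45 ranked between 1 and 8 and Gins2 between 1 and 7.

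**Figure D1:**
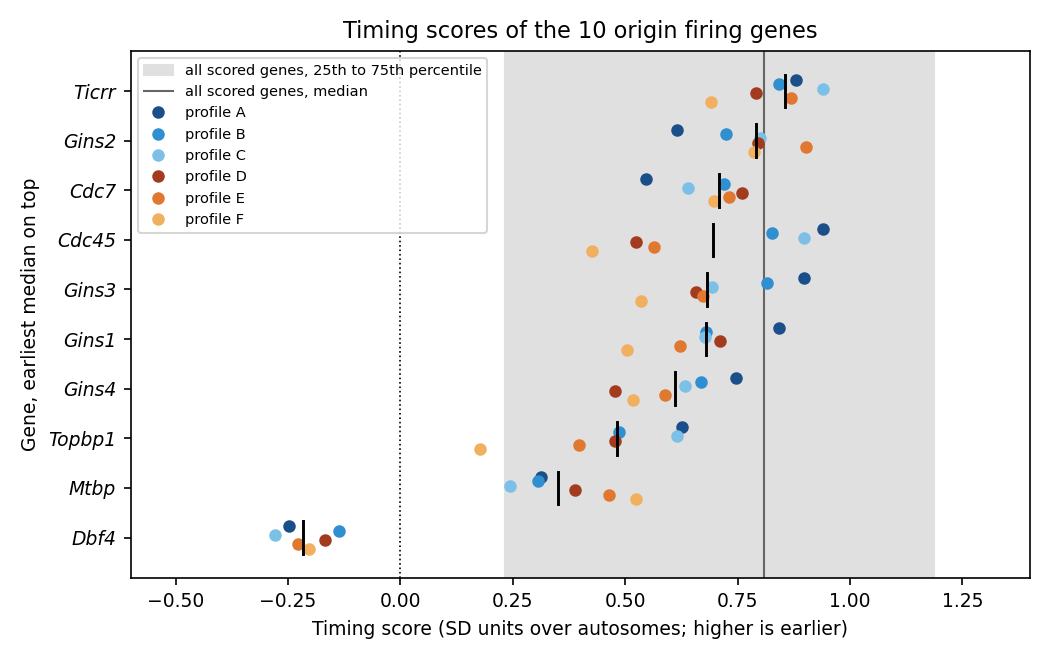
Timing score of each origin firing gene (x axis, SD units over the autosomes) by gene (y axis, earliest median on top), with a point for each of profiles A to F and a black bar at their median. The grey band holds the middle part of the median scores of all genes, from 0.23 to 1.19 with a median of 0.81, and Dbf4 lies left of 0 in each profile.

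The genes of the kinase pair lay on the same chromosome and differed in timing. Dbf4, which encodes the regulatory subunit, is at chr5:8396969-8422725 (mm10) and Cdc7, the catalytic subunit gene, is 98.6 Mb away at chr5:106964315-106984440. Cdc7 scored 0.55, 0.72, 0.64, 0.76, 0.73 and 0.70 in profiles A to F, and Dbf4 scored -0.25, -0.14, -0.28, -0.17, -0.23 and -0.20. The ranges did not overlap, and Cdc7 was higher in 6 of 6 profiles, by a median of 0.91 (0.79 to 0.96). The mean raw level over each gene with 500 kb on each side showed the same order, at 2.06, 2.07, 2.05, 2.05, 2.07 and 2.06 for Cdc7 and 1.94, 1.95, 1.95, 1.93, 1.92 and 1.93 for Dbf4. The surroundings of Dbf4 stood at -0.0440 to -0.0298 relative to the autosomal median of each profile, and were the only ones of the 10 to be so. The same call, above the autosomal median in each profile, held for the other 9 genes and for 76.4% of all genes.

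Dbf4 sat on a flat shoulder of late to middle replicating DNA, and Cdc7 on a steep slope. The score around Dbf4 changed by 0.08, 0.01, 0.07, -0.04, -0.02 and -0.13 units per Mb within 250 kb of its midpoint, and its range over the profiles, 0.14, was the smallest of the 10 genes and at percentile 6.29 of all genes. At Cdc7 the score rose towards higher coordinates by 1.72, 1.54, 1.64, 1.12, 1.08 and 0.74 units per Mb. Within 500 kb of Cdc7 the score spanned a median minimum of -0.04 to a median maximum of 1.36. The minimum was below 0 in A, B and C and between 0.02 and 0.21 in D, E and F, so the slope ran from DNA near the autosomal average to earlier DNA. The closest neighbour of Dbf4 was the mitochondrial carrier gene Slc25a40, 0.005 kb away, followed by Adam22, whereas the closest to Cdc7 was the meiotic helicase gene Hfm1 at 37.6 kb.

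The raw level over Dbf4 itself was higher than that of its region. The 3 windows over Dbf4 had mean raw levels of 2.06, 2.12, 2.01, 2.08, 2.04 and 2.09 in profiles A to F, above the surroundings in each profile by a median of 0.134. With the raw level averaged over 50 kb on each side of the midpoint and rescaled over autosomal windows, Dbf4 stood at 0.19, 0.28, 0.07, 0.11, -0.0057 and 0.14, so that its sign turned in 5 of 6 profiles. Cdc7 kept the higher value on that scale, at 0.79 to 1.48. The scatter of raw levels around the score was shared among profiles, with a median Pearson r of 0.78 over 15 pairs of profiles. The 6 profiles are therefore not 6 separate measurements of the raw level at Dbf4.

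The start sites of the pair, and of the earliest firing gene Ticrr, are shown because they are the sequences on either side of a score of 0 and at the early end of the list. RefSeq (GRCm38.p6) gave 300 bases for 6 of the 10 genes, from 250 before to 50 after the start. Cdc7 had 2 entries, and only the one nearest the start coordinate of the gene was read. The windows are chr5:8422667-8422966 on the minus strand for Dbf4, chr5:106964072-106964371 on the plus strand for Cdc7 and chr7:79659946-79660245 on the plus strand for Ticrr. Each is printed 5′ to 3′ along the gene, and capitals mark matches on either strand to letters of 3 promoter elements of cell cycle genes, chosen after the sequences were seen. The elements are E2F (TTCCCGC or TTCGCGC, and also TTGGCGC or TTGCCGC), the cell cycle homology region (TTTGAA) and the CCAAT box (CCAAT).
Dbf4: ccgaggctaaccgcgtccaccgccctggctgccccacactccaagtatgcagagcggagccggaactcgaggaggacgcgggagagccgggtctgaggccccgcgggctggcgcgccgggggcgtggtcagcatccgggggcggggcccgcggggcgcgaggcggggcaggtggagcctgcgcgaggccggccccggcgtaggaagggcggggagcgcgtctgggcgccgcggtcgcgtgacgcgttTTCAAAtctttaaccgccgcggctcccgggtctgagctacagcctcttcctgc
Cdc7: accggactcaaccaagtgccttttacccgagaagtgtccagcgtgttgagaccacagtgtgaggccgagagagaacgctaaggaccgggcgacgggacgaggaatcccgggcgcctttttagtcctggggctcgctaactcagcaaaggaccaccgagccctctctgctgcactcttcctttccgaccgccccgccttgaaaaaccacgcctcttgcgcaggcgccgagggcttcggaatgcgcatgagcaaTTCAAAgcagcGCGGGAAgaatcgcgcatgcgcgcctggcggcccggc
Ticrr: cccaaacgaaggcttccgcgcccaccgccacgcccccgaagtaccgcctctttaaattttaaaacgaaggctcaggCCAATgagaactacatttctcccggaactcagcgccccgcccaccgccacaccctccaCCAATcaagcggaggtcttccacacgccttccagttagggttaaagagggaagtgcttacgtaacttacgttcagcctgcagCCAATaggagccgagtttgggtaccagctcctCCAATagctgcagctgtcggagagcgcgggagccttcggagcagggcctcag

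The Cdc7 window held 1 E2F match and 1 TTTGAA match close to the start, the Dbf4 window 1 TTTGAA match and no E2F match, and the Ticrr window 4 CCAAT matches alone. Over the 6 firing genes with a sequence, E2F letters occurred in 3 (Gins3, Topbp1 and Cdc7), TTTGAA in 4 (Gins3, Cdc45, Dbf4 and Cdc7) and CCAAT in 3 (Gins3, Cdc45 and Ticrr). Of 16457 promoter windows of protein-coding genes, 12.4%, 15.9% and 39.1% held these letters. The letters were chosen after the sequences of the firing genes were seen, so the counts are no test of the list. The matches in Topbp1 were 2 overlapping ones. Dbf4, the latest of the 10, had a CpG-rich start, with 42 CpG in 300 bases (percentile 96.2 of all windows) and a GC content of 74.7%, against 21 CpG and 58.3% for Ticrr and medians of 14 and 56.7% over all windows. This was not particular to Dbf4, since Topbp1 had 38 CpG (percentile 93.6) and a GC content of 73.7%. Cdc7 had 30 CpG, Gins3 21 and Cdc45 11. The GC content of the Cdc45 window was the lowest of the 6, at 38.7%.

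**Figure D2:**
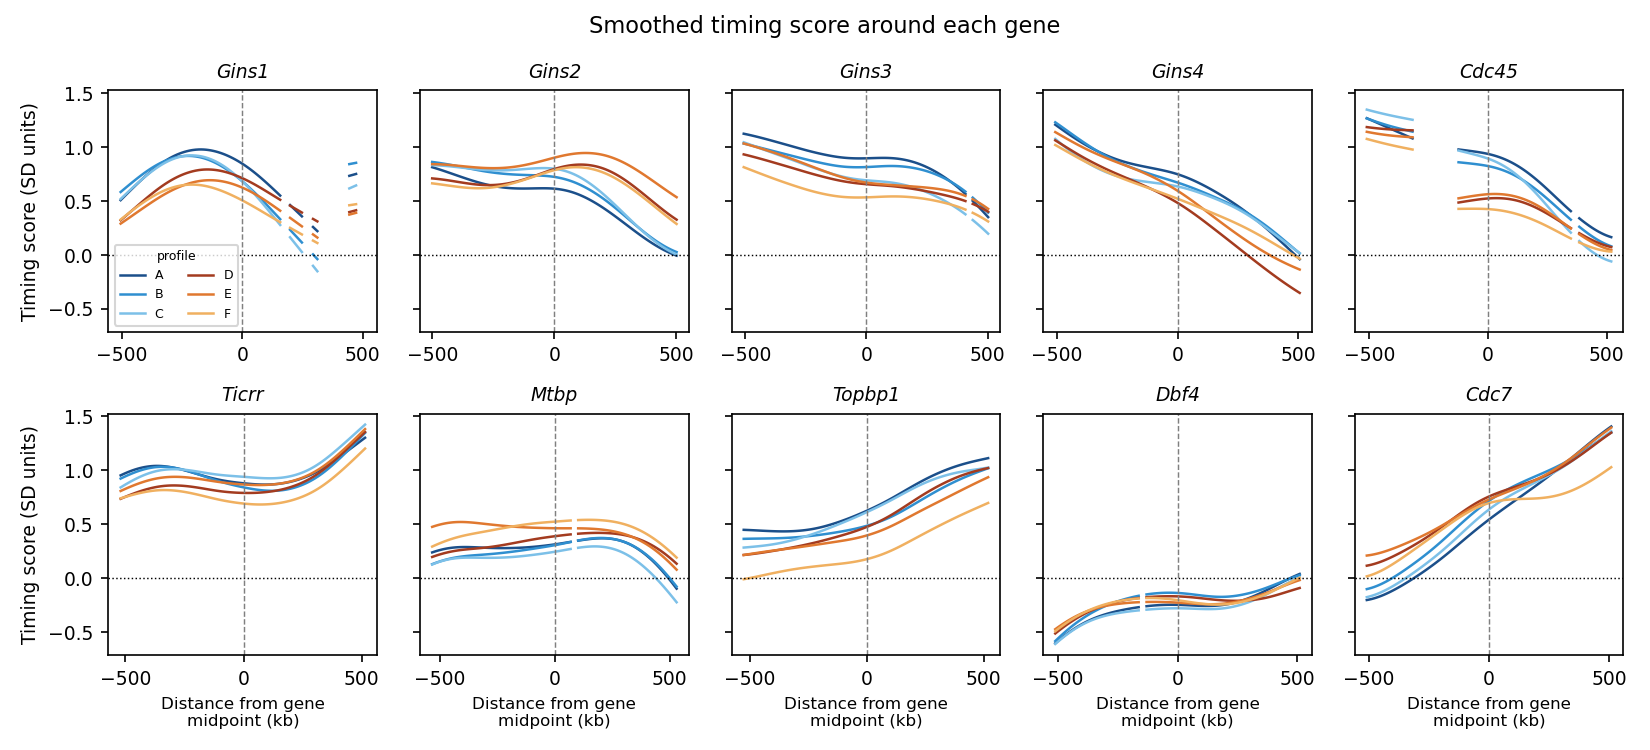
Smoothed timing score (y axis, SD units) against distance from the midpoint of each gene (x axis, kb), with a line for each of profiles A to F. Breaks are windows without a value, and the panels show the flat, low course at Dbf4, the slope at Cdc7 and the profiles D to F under A to C at Cdc45.

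The genes that recruit CDC45 and GINS to the loaded helicase were spread over the range of the list. Ticrr (chr7:79660196-79698148), which encodes Treslin, scored 0.88, 0.84, 0.94, 0.79, 0.87 and 0.69 in profiles A to F. Its surroundings were early throughout, since the lowest score within 500 kb was 0.68 in profile F and 0.74 to 0.87 in the others. Ticrr overlaps Kif7, a gene of the hedgehog pathway.

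Mtbp (chr15:55557404-55626423), the longest of the 10 genes at 69020 bp, encodes the partner of Treslin and scored 0.31, 0.31, 0.24, 0.39, 0.46 and 0.52. It lay later than Ticrr in each profile, and no firing gene other than Dbf4 had a lower median. Its 8 windows had raw levels of 1.99, 1.94, 1.97, 2.00, 1.98 and 1.99, below the surroundings in 6 of 6 profiles, with a median difference of -0.0503. On the rescaled raw level within 50 kb Mtbp stood at -0.18 to 0.25, so its side of 0 was not settled there.

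Topbp1 (chr9:103305167-103350428), the scaffold gene, scored 0.63, 0.49, 0.61, 0.48, 0.40 and 0.18. Profile F was the lowest, and the range of 0.45 was at percentile 88.1 of all genes. The surroundings showed the same low end on raw levels, at 2.08, 2.06, 2.06, 2.04, 2.03 and 2.01. The 20 Mb bin around Topbp1 also stood low in F, at -0.0251 relative to the median of the profiles, and its part in the low score was not tested. The score rose across Topbp1 towards higher coordinates in each profile, by 0.61 to 1.00 units per Mb.

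Cdc45 had the widest range of scores over the profiles, though not of raw levels. The gene, whose product travels with the helicase, is at chr16:18780447-18811972 and overlaps Ufd1. Its scores were 0.94, 0.83, 0.90, 0.52, 0.56 and 0.43 in profiles A to F, so that D, E and F lay below A, B and C with no overlap. The range of 0.51 was at percentile 92.0 of all genes. On the rescaled raw level of the surroundings the range of Cdc45 was 0.30, below those of Gins2 (0.51), Mtbp (0.49), Topbp1 (0.44), Gins4 (0.31) and Gins1 (0.31). Those surroundings take in 500 kb on each side, whereas the score is that of 1 window. On the rescaled raw level within 50 kb Cdc45 ran from 0.42 to 1.02. Gins1 (0.74 to 1.09), Gins2 (0.68 to 1.04) and Mtbp (-0.18 to 0.25) had narrower ranges there. Those of Topbp1 (0.06 to 0.76), Cdc7 (0.79 to 1.48) and Gins4 (0.67 to 1.30) were wider. Raw levels over the 4 windows of Cdc45 were 2.21, 2.19, 2.22, 2.11, 2.16 and 2.15, with the same separation, and those of the surroundings were 2.10, 2.08, 2.08, 2.05, 2.05 and 2.05.

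A run of 16 windows without a value (174 kb) ends 124 kb from Cdc45, at chr16:18482889-18656613. Across this gap the score dropped by 0.10, 0.28, 0.29, 0.67, 0.57 and 0.55 in profiles A to F, from the lower to the higher coordinate. Raw levels averaged over 20 windows on each side dropped by 0.0323, 0.0499, 0.0602, 0.107, 0.0983 and 0.0902. The step was therefore larger in D, E and F on both measures. On the far side the last valued window scored 0.98 to 1.25, and there D and E were within the range of A to C.

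A separation of the same columns was seen at other firing genes and in much of the genome. Scores of A to C were all above those of D to F for 4 of the 10 genes (Gins3, Gins4, Cdc45 and Topbp1), against 26.8% of all scored genes, and all below for 1 (Mtbp), against 7.38%. On the raw levels of the surroundings, 5 firing genes had A to C all above D to F, against 29.6%, and 0 had them all below, against 1.51%. The profiles differ in their autosomal median, however, and with it subtracted 2 firing genes (Cdc45 and Topbp1) had A to C all above, against 10.8%, and 1 (Gins2) had them all below, against 4.63%. Gins3, Gins4 and Mtbp, which separated on the score, did not separate on that measure. These sets of columns are not known groups, and no genotype is read from them.

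The genes of the GINS complex, which has 4 subunits, had median scores of 0.61 to 0.79, a span that also holds Cdc45 and Cdc7. On the rescaled raw level within 50 kb Gins3 stood apart, at 0.23 to 0.49, from Gins1, Gins2 and Gins4, at 0.67 to 1.30. Gins1 (chr2:150909556-150931280), which encodes PSF1, scored 0.84, 0.68, 0.68, 0.71, 0.62 and 0.50 in profiles A to F. Gins2 (chr8:120581266-120589075), the PSF2 gene, scored 0.62, 0.73, 0.80, 0.80, 0.90 and 0.79. Gins3 (chr8:95633559-95645059), the PSF3 gene, scored 0.90, 0.82, 0.69, 0.66, 0.67 and 0.53. Profile A was the highest for Gins1, Gins3 and Gins4 and the lowest for Gins2.

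Gins4 (chr8:23226610-23237668), which encodes SLD5, scored 0.75, 0.67, 0.63, 0.48, 0.59 and 0.52. Profiles D, E and F were below A, B and C for Gins4 and also for Gins3, where the closest values were 0.69 in C and 0.67 in E. The 3 GINS genes of chromosome 8 are 24.9 to 97.4 Mb apart and share no windows. Gins4 scored lower than Gins3 in 6 of 6 profiles, by a median of 0.12, whereas Gins3 was above Gins2 in 2 profiles and below it in 4.

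Gins1 was the only firing gene with a timing peak within 250 kb in each profile, at 129 to 230 kb. A timing peak is a local maximum of the score with a prominence of at least 0.25, and marks a zone where replication starts early relative to its flanks. Of all scored genes, 19.3% met this call. Mtbp met it in 5 of 6 profiles, at 152 to 202 kb, and missed it in E at 412 kb. The valley nearest Gins1 lay at 311 kb in each profile, at the last valued window before a gap. The score there was 0.22, -0.04, -0.15, 0.31, 0.16 and 0.11 in profiles A to F. At the next valued window, at 444 kb, it was 0.73, 0.84, 0.62, 0.40, 0.37 and 0.46. The part of this gap in the peak call at Gins1 was not tested. No firing gene had a timing valley within 250 kb in each profile, against 7.12% of all genes. The score sloped the same way within 250 kb in each profile for 6 firing genes (Gins1, Gins3, Gins4, Cdc45, Topbp1 and Cdc7), against 80.9% of all genes. Cdc45 and Gins3 lay 1230 to 1358 kb from the nearest peak in each profile, against a median distance of 509 kb over all scored genes.

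Gins2 stood on a different part of the profile in different columns. In D, E and F a peak lay 109, 129 and 88.7 kb from it, whereas in A, B and C the nearest peaks were 960, 1000 and 531 kb away. The slope within 250 kb was -0.44, -0.55 and -0.52 units per Mb in A to C and 0.39, 0.33 and 0.32 in D to F. Such a turn of sign between these sets of columns occurred for 1.26% of all scored genes and for 2 firing genes. The other was Dbf4, where the slopes were close to 0. On raw levels, the 500 kb above Gins2 minus the 500 kb below it gave -0.0203, -0.0381 and -0.0296 in A to C and 0.0250, 0.0256 and 0.0412 in D to F. The raw scatter of a window is 0.121 to 0.127, so these differences rest on averages of many windows. On the score, the same contrast of flanks did not change sign. It was -0.34, -0.37 and -0.37 in A to C and -0.0172, -0.0088 and -0.0246 in D to F. The turn on the score was thus seen within 250 kb and not over 500 kb.

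Of the 10, 6 firing genes had higher raw levels in their own windows than in their surroundings. The windows over the gene exceeded the mean of the gene with 500 kb on each side in each profile for 6 of the 10 genes (Gins2, Gins4, Cdc45, Ticrr, Dbf4 and Cdc7), against 43.4% of all genes. The median difference was 0.198 at Gins2, 0.175 at Cdc7, 0.166 at Gins4, 0.134 at Dbf4, 0.130 at Ticrr and 0.108 at Cdc45. Gins1, Gins3 and Topbp1 had differences of both signs, Topbp1 through profile E alone (-0.0039), and Mtbp had negative ones throughout. Over all genes the median difference was 0.0310, with quartiles of -0.0255 and 0.0864. The gene windows number 2 to 8 per gene, and the scatter of raw levels around the score was shared among profiles, with a median Pearson r of 0.78 (0.76 to 0.80) over 15 pairs of profiles across 202423 windows. The 6 profiles are therefore not 6 separate measurements of this difference. What the windows share was not tested.

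**Figure D3:**
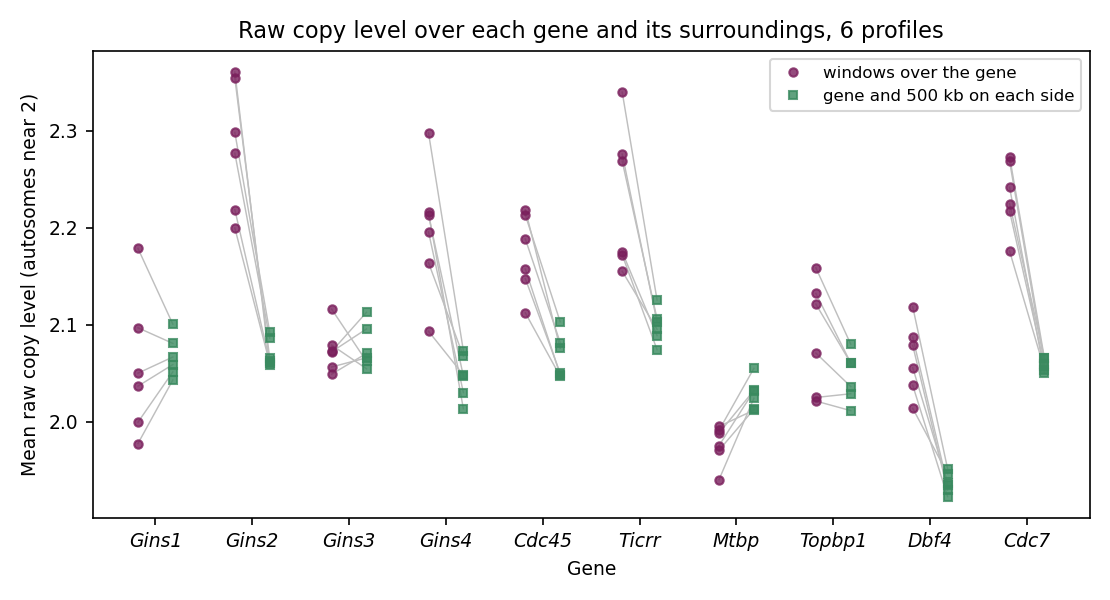
Mean raw copy level (y axis, autosomes near 2, axis not from 0) of the windows over each firing gene (circles) and of the gene with 500 kb on each side (squares), with a line joining the values of each profile. The circles lie above the squares in each profile at Gins2, Gins4, Cdc45, Ticrr, Dbf4 and Cdc7, and below them at Mtbp.

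Most firing genes had fewer genes around them than the median gene. The number of other protein-coding genes within 500 kb was 17 at Ticrr, 16 at Gins3, 15 at Cdc45, 13 at Gins1, 10 at Gins2, 9 at Gins4 and Topbp1, 8 at Dbf4, 7 at Cdc7 and 6 at Mtbp. The median was 9.5, against 17 over all scored genes. The latest genes Dbf4 and Mtbp were among the 3 with the fewest neighbours, but Cdc7, with 7, scored higher than most of the list.

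Other genes of replication initiation gave a wider spread than the firing genes. The licensing list, of genes for the loading of MCM onto origins and its control, had a median of 1.08 (0.98 to 1.22 over the profiles). Of its 9 genes, 8 were above 0 in each profile and 1 below. The licensing list ran from the loading factor gene Cdt1 at 1.56 to the origin recognition subunit gene Orc5 at -0.39. The MCM helicase list had a median of 0.79 (0.68 to 0.88), with 5 of 6 genes above 0 in each profile and 1 below, from Mcm6 at 1.505 to Mcm3 at -0.46. The firing list, for comparison, had a median of 0.63 (0.52 to 0.70) and ran from 0.86 to -0.22.

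Other initiation and fork factors had a median of 1.21 (1.02 to 1.29), and all 11 scored genes of 15 were above 0 in each profile, with Pola1, Pola2, Pole2 and Pole3 not scored. They ran from Donson, an initiation and fork protection factor, at 1.56 to the primase subunit gene Prim2 at 0.42. The genes that control firing, among them cyclins, checkpoint kinases and Rif1, had a median of 0.86 (0.56 to 0.92). Ppp1ca was not scored. Of the 11 scored genes, 8 were above 0 in each profile, 2 below and 1 mixed, from Ccne2 (cyclin E2) at 1.45 to Cdk1 at -0.38. The mixed gene, Ccna2 (cyclin A2), named after its values were seen, lies in a stretch of chromosome 3 with a broad copy shift and scored 0.11, 0.05, -0.06, -1.04, -1.65 and 0.02. Raw levels of the 20 Mb bin around it departed from the median of the profiles by -0.148 in D and -0.262 in E, whereas no other gene of these lists lay in a bin with a departure over 0.0340. Without Ccna2 and Ccne2, which lie on chromosomes set aside for broad shifts, the list's median was still 0.86. The same step gave 1.15 for the licensing list, 0.78 for the MCM helicase list and 1.21 for other initiation and fork factors. Chromosome 5, which holds Dbf4 and Cdc7, was kept, with a largest 20 Mb departure of 0.0600. Chromosome 6 was set aside at 0.0474, so no single limit on this departure defines the set. Differences between the lists were not tested.

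**Figure D4:**
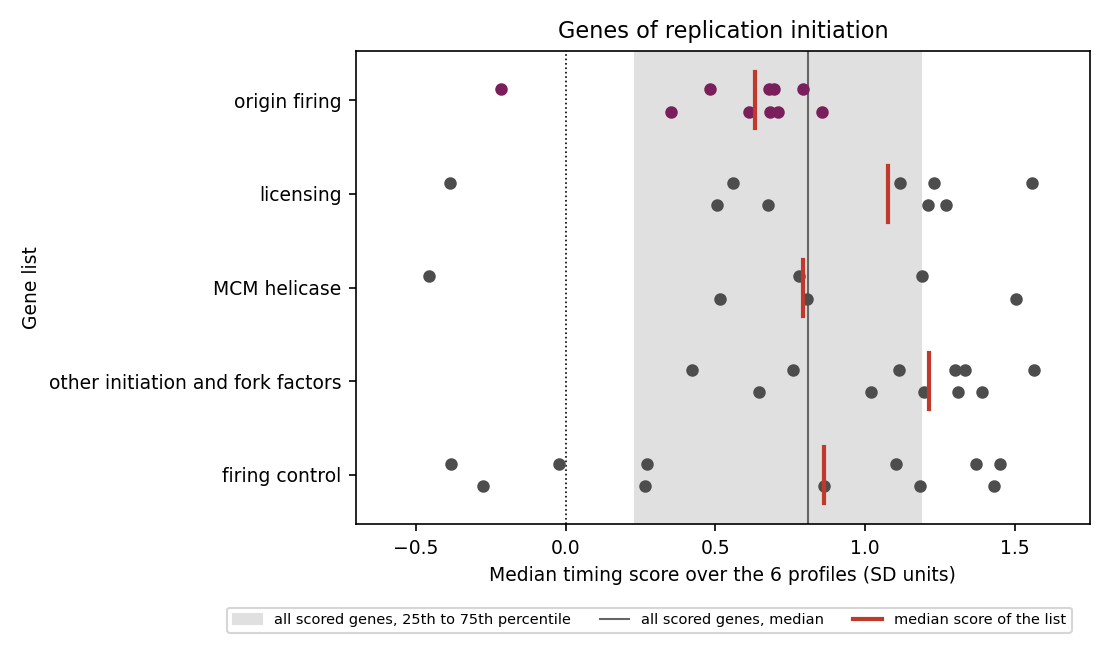
Median timing score over the 6 profiles (x axis, SD units) of each scored gene (points) in the origin firing list and in 4 other lists of replication initiation (y axis), with a red bar at each list's median. The firing genes span -0.22 to 0.86, while the highest genes of each of the other lists lie at 1.45 to 1.56.

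Likeness in timing was measured as the root mean square difference of the 6 scores, over genes on other chromosomes. Closest to Ticrr were Ccdc130 and D8Ertd738e on chromosome 8, at 0.0178 and 0.0186, and within the replication lists Mcm2 at 0.0687. Closest to Dbf4 were Fbxo5, which encodes the mitotic inhibitor EMI1, and Mtrf1l, both on chromosome 10, at 0.0304 and 0.0317, and within the lists the checkpoint kinase gene Chek1 at 0.112. Gins1 and Gins3 lie equally near the median of the members' medians. Closest to Gins1 were the zinc finger genes Zfp239 and Zfp637 on chromosome 6, at 0.0105 and 0.0146, and within the lists Mcm5 at 0.112. Closest to Gins3 were Phyh and Gm13194 on chromosome 2, at 0.0250 and 0.0289, and within the lists Orc4 at 0.0825. With 16476 to 17366 genes to choose from and 6 values per gene, close matches are common.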

How the data were processed

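Per the labels' protocols, DNBSEQ paired-end reads of 150 bp were aimed at 30-fold coverage. Per the submitters' processing notes, the build was mm10 and Picard 2.23.9 was used, and the series title names the TIGER method. The aligner, the GC correction and the form of smoothing are not given in the sources used here. Deposited raw copy levels have autosomal medians of 1.96 to 1.98. The deposited timing score was smoothed and scaled by the authors. No column of values was left unused.

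Each gene took the score of the nearest window valued in all 6 profiles and within 50 kb of its midpoint, from 20665 autosomal protein-coding RefSeq genes. Peaks were sought on these windows per profile, and slopes were straight-line fits. Calculations used Python 3.11.15, pandas 2.3.3, NumPy 2.4.6 and SciPy 1.17.1. Peak finding was tested on simulated profiles with tall, evenly spaced peaks and little noise, which cannot show how shallow peaks or gaps are handled. The choice of nearest window and the interval means were checked against direct calculation. Slopes, rescaling and likeness were not tested in this way. Since no column has a genotype, no test between groups was made. The members and lists were chosen with earlier results of these data known. All 10 genes were named, with the earliest and latest gene of each other list. Alternatives covered gene position, window averaging, raw levels, rescaling, peak limits and leaving out each profile. RefSeq promoters were read for 6 genes.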

Additional observations from a re-analysis of the deposited data

How the results depend on the processing

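No paired analysis was possible because the value columns have no names. Gene ends, raw levels rescaled over windows, and the checks of gene windows were added after the data were seen, as were the centring of raw levels and the lists without chromosomes with broad shifts. The median score of the firing genes was 0.11 on raw levels rescaled over genes and 0.75 on raw levels rescaled over windows. The first has its 0 at the mean of genes, which is earlier than the autosomal mean. The other positions and scalings gave 0.62 to 0.64, and leaving out a profile 0.61 to 0.66. Genes above 0 in each profile numbered 5 on raw levels rescaled over genes, 8 on those rescaled over windows, 5 of the 6 that have a strand when placed at the start, and 9 under the others. Signs turned on raw levels rescaled over genes for Gins3 (-0.27), Mtbp (-0.65) and Topbp1 (-0.17), and on those rescaled over windows for Dbf4 (0.13). Genes with a peak within the limit in each profile numbered 0 at 100 kb, 2 at 500 kb, 0 at a prominence of 0.5, and 1 to 2 with a profile left out (2 without profile E). Gene windows stood above their surroundings in each profile for 7 genes without profile E, against 6. The separation of A to C above D to F on raw surroundings held for 5 genes, and for 2 after subtracting each profile's autosomal median. Of 76 member scores under other positions, windows and scales, 59 moved by less than 1 SD of that gene's profile scores, 13 moved more and 4 changed sign, and all 60 with a profile left out moved by less. Read depth per window is unknown, and the scatter of raw levels is the only guide to its limits.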

Other observations

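At the firing genes where the columns separated, the size of the step differed. For Cdc45 profiles A to C lay at 0.83 to 0.94 and D to F at 0.43 to 0.56, while for Topbp1 the sets came as close as 0.49 and 0.48, in profiles B and D. For Mtbp the sets lay at 0.24 to 0.31 and 0.39 to 0.52 on the score, but its surroundings had raw levels of 2.03, 2.02, 2.01, 2.01, 2.03 and 2.05 in A to F, where the sets overlapped. The range of Mtbp over the profiles was 0.28 on the score and 0.49 on the rescaled raw level of its surroundings, that of Gins2 0.29 and 0.51, and that of Cdc45 0.51 and 0.30. The score is that of 1 window and the surroundings take in 500 kb on each side, so these ranges cover unlike stretches. No explanation was tested.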
